A study of Mus musculus with 24 samples.

Results

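The genes described here are 10 genes of fat cells and of fat breakdown, measured in the colon of tumor-bearing mice. They are the adipokine genes Adipoq, Retn, Cfd and Lep, the lipid droplet genes Plin1 and Cidec, the fatty acid carrier gene Fabp4, and the lipase genes Lpl, Lipe and Pnpla2. A probe was taken when the RefSeq accession printed beside it on the array named one of these genes. That gave 15 of 56605 probes, and 10 of the 45616 genes or unnamed transcripts that the array measures. Cfd, Retn and Fabp4 had 2 probes each, Lpl had 3, and the other members had 1 probe each.

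RNA from 24 colons was hybridized, 1 mouse per array, in 6 groups of 4 arrays (fewer than the animals per group that the methods name, picked there for a body weight near the group average), namely males (M), females (F) and ovariectomized females (F(OVX)), each on LFD or HFD. All mice were C57BL/6J, 7 weeks old at purchase, and all received the carcinogen azoxymethane (AOM, 10 mg/kg) and then 1.5% dextran sulfate sodium (DSS), an irritant that causes colitis, in 3 cycles, so that no group was free of treatment. M and F mice had sham surgery in place of the removal of the ovaries. The low-fat diet (LFD) held 10% and the high-fat diet (HFD) 45% of its energy as fat and was fed for 14 weeks. The mice were sacrificed 75 days after AOM, and the distal colon left after other uses went to the arrays. How much fat was attached to a piece of colon was not given in the sources used here.

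White fat cells store triglyceride in a droplet that is coated by perilipin 1 (Plin1) and enlarged by Cidec. They secrete adipokines, among them adiponectin (Adipoq), resistin (Retn), adipsin (Cfd, a protease of the complement system) and leptin (Lep, which signals the size of fat stores). Lipoprotein lipase (Lpl) frees fatty acids from blood lipoproteins, while adipose triglyceride lipase (Pnpla2) and hormone-sensitive lipase (Lipe) act in turn on the stored triglyceride. In the gut, fat cells lie outside the wall, in the mesentery, and in small numbers within it. Adipoq, Retn and Cfd in mice are made mainly by fat cells, whereas Pnpla2 is active in most tissues, and Fabp4 and Lpl are also made by cells such as macrophages and, for Fabp4, the lining of small vessels.

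Levels are given as log2 of the quantile-normalized intensity, so that 1 unit is a doubling. A probe counted as detected when the scanner software marked it well above background. The arrays detected 40.5% to 61.9% of all probes, and the dimmest detected probe of an array lay between 3.08 and 5.88. Undetected levels below that have no order. Each slide held 1 sex or surgery group, with LFD in one row and HFD in the other, so a difference between M, F and F(OVX) cannot be told apart from slide, nor diet from slide row. M + LFD replicates 1 and 2 stood apart from all other arrays: Hoxb13, a gene of the hindmost colon, was at 2.18 and 5.05 there and between 12.61 and 14.87 on the other 22 arrays. The male diet differences, and the member calls over all 24 arrays that used these 2 arrays, are therefore also given without them. Nothing in the labels says more of the replicates than that they are separate mice, and a bulk sample cannot show whether fewer cells of a type or less RNA per cell lowered a level.

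Adipoq, Retn and Cfd varied widely from mouse to mouse, and they varied together. Adipoq was detected on 13 of 24 arrays, Retn on 14 and Cfd on 17. Where detected, the highest Adipoq level was 25.8-fold above the lowest, that of Retn 26.5-fold and that of Cfd 83.9-fold. The SD within groups was 2.15 for Adipoq, 1.95 for Retn and 2.88 for Cfd on the log2 scale, larger than that of 99.8%, 99.7% and 99.98% of the 22383 genes that passed the filter on dim probes (detected on all 4 arrays of a group), whose median SD was 0.35. Adipoq and Retn did not pass that filter themselves, and genes as dim as they were are missing from this comparison. Undetected levels entered the SDs of all 3 genes, so these SDs mix detection with level. These 3 genes are the ones whose levels the results turn on, so the DNA around their start sites is shown here, from 250 bases before to 50 bases after each start (RefSeq, GRCm38.p6, + strand in all 3).

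Adipoq, chr16:23146286-23146585: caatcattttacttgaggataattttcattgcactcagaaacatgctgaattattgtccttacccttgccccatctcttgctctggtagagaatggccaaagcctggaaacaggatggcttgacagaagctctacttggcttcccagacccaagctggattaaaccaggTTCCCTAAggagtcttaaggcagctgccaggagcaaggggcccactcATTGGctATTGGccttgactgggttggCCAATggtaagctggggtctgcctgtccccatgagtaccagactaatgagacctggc
Cfd, chr10:79890603-79890902: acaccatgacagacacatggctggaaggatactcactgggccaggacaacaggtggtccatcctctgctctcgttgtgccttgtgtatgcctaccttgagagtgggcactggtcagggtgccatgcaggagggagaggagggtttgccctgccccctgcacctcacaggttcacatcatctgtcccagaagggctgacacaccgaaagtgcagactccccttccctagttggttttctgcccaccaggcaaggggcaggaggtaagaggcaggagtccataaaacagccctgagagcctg
Retn, chr8:3655520-3655819: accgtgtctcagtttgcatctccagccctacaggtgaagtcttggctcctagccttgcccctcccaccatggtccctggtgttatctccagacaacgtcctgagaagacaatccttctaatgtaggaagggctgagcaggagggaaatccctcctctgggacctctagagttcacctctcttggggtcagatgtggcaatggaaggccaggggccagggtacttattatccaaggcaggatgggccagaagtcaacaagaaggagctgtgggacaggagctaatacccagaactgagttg

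Capitals mark letters that match AGGTCA (a half-site of nuclear receptors such as PPARγ), TTNNGNAA (a loose form of the C/EBP site), CCAAT or TATAAA, read on both strands. The Adipoq window held CCAAT 3 times and TTNNGNAA 1 time, with no overlap between matches, and the Cfd and Retn windows held none of the 4 motifs. Of all 32851 promoter windows of this length in the RefSeq table, 16.3% held AGGTCA, 40.7% TTNNGNAA, 37.4% CCAAT and 13.6% TATAAA. A motif match is only a match of letters, and a window without one is only a window without those letters. Promoter windows were found for 8 of the 10 members.

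Adipoq stood at 2.13, 5.48, 4.92 and 8.55 in M + LFD replicates 1 to 4 and at 4.85, 2.13, 2.19 and 2.18 in M + HFD. In F + LFD it was 6.97, 2.08, 5.96 and 8.69, and in F + HFD 6.55, 5.54, 4.03 and 7.55. In F(OVX) + LFD it was 6.74, 7.18, 7.02 and 2.22, and in F(OVX) + HFD 4.00, 2.12, 5.85 and 2.22. Adipoq was thus detected on 2 arrays of M + LFD and 1 of M + HFD, on 3 of F + LFD and 2 of F + HFD, and on 3 of F(OVX) + LFD and 2 of F(OVX) + HFD. Every group held at least 1 array on which it was not detected, and in each of the 3 diet pairs the levels of LFD and HFD overlapped. The group means ran from 5.92 in F + LFD and F + HFD through 5.79 in F(OVX) + LFD and 5.27 in M + LFD to 3.55 in F(OVX) + HFD and 2.84 ± 1.35 (SD) in M + HFD, and no neighbours in that order were further apart than the SD of the group with the wider spread.

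Across different probes intensity is no measure of RNA amount, but Cfd reached the highest intensity of these 3 genes. Its brighter probe read 2.02, 7.97, 8.62 and 11.73 in M + LFD and 6.13, 2.05, 4.19 and 2.07 in M + HFD. In F + LFD it read 9.75, 5.34, 9.48 and 10.68, and in F + HFD 9.37, 7.45, 7.74 and 9.99. In F(OVX) + LFD it read 8.82, 10.09, 9.07 and 2.05, and in F(OVX) + HFD 5.64, 2.02, 8.18 and 2.17. F was the group in which Cfd was detected on all 8 arrays, against 4 of 8 in M and 5 of 8 in F(OVX). The other Cfd probe ran parallel over the 24 arrays (r = 0.99), but it was not detected on F + LFD replicate 2 (3.8).

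Retn gave the same picture at lower intensity. It read 2.10, 3.84, 7.15 and 7.88 in M + LFD and 3.93, 2.04, 4.38 and 2.15 in M + HFD. In F + LFD it read 6.95, 2.67, 6.08 and 8.57, and in F + HFD 6.79, 4.72, 5.78 and 7.4. In F(OVX) + LFD it read 7.01, 6.94, 6.63 and 4.48, and in F(OVX) + HFD 2.81, 2.06, 6.70 and 2.12. Low arrays were shared with Adipoq: M + LFD replicate 1, F + LFD replicate 2, F(OVX) + LFD replicate 4 and M + HFD replicates 2 and 4 were low in both genes, and Retn's 2 probes ran together (r = 0.96). Detection was not always shared. M + LFD replicate 3 and F + HFD replicate 3 detected Retn (7.15 and 5.78) but not Adipoq (4.92 and 4.03). F(OVX) + HFD replicate 1 detected Adipoq (4.00) but not Retn (2.81).

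**Figure D1:**
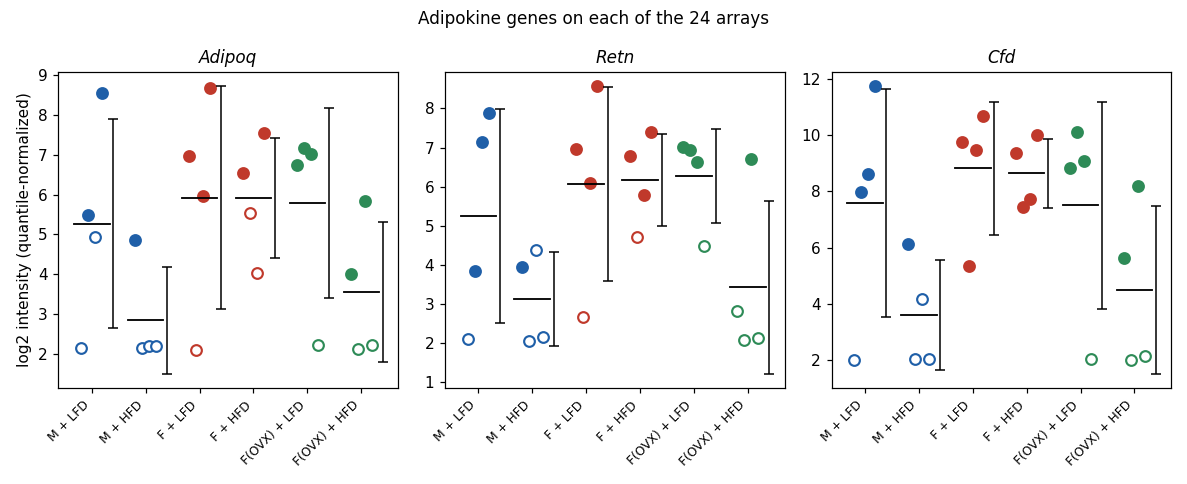
Level of Adipoq, Retn and Cfd (y axis, log2 quantile-normalized intensity) on the 4 arrays of each group (x axis), with filled points detected, open points not detected, a line at the mean and a bar of ± SD. Points within 1 group spread from near 2 to above 8 for Adipoq in M + LFD and F + LFD, and M + HFD has 1 detected array for Adipoq, Retn and Cfd alike.

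Which other genes followed Adipoq was asked by fitting the level of each gene on that of Adipoq over the 24 arrays, with the 6 groups as factors. Cfd and Car3 were the 2 genes that passed an adjusted p of 0.05 in limma, 0.00894% of the 22383 genes tested, and without the filter on dim probes Retn joined them as the third of 45615 (0.00658%). Undetected levels entered this fit (Adipoq was detected on 13 arrays and Cfd on 17). Its slopes therefore mix detection with level and are no rate per doubling. The slope of log2 Cfd on log2 Adipoq was 1.25 ± 0.11 (SE), with an adjusted p of 1.1e-05 in limma. The slope was 0.62 ± 0.069 for Car3, carbonic anhydrase 3, an abundant enzyme of fat and muscle cells (adjusted p = 0.00025), and 0.77 ± 0.11 for Retn (adjusted p = 0.025 without the filter). The next gene, Cyp2e1, a cytochrome P450 of liver and fat cells, had a slope of 0.73 ± 0.12 and an adjusted p of 0.072. Cfd still passed with each of the 24 arrays left out in turn, and both Cfd and Retn passed without M + LFD replicates 1 and 2. Retn met the filter on dim probes in that setting only through M + LFD replicates 3 and 4, on which it was high. Its pass there adds no support.

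Over the 13 arrays on which Adipoq was detected, Pearson's r with Adipoq was 0.94 for Cfd (Spearman's rho 0.92, permutation p = 1e-05 for r, the smallest 100000 permutations can give) and 0.93 for Retn (rho 0.90, permutation p = 1e-05). Without the 2 of these arrays farthest from the Adipoq median, r was 0.93 and 0.86. Within the slides of M, F and F(OVX), as deviations from the group means, r was 0.94, 0.95 and 0.995 for Cfd and 0.75, 0.94 and 0.87 for Retn. All arrays of a slide entered these within-slide values, so undetected levels are part of them. F(OVX) + LFD replicate 4 and F(OVX) + HFD replicates 2 and 4 detected neither Adipoq nor Cfd. Detection went together as well, since Cfd was detected on 13 and Retn on 12 of the 13 arrays with Adipoq, against 4 and 2 of the 11 arrays without it. The 13 arrays were picked by Adipoq itself, so these values describe them. The r over the 13 arrays and its permutations took levels as they stood, so differences between groups and slides enter both.

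The remaining members did not pass that fit. Fabp4 had a slope of 0.08 ± 0.041 (limma, unadjusted p = 0.055), and on the 13 arrays with Adipoq its r was 0.86 (rho 0.88, permutation p = 0.00022) and 0.80 without the 2 farthest. Within slides, where arrays without Adipoq entered too, that relation was uneven, with r of 0.32 in M, 0.90 in F and -0.18 in F(OVX). Over the 24 arrays as deviations from group means, r of Fabp4 was 0.43. Cidec had an r of 0.53 on the same 13 arrays (permutation p = 0.061), Lpl 0.34 (p = 0.26 by permutation), Pnpla2 -0.30 (permutation p = 0.32) and Lep -0.39 (permutation p = 0.19). The 9 members set against Adipoq make 9 relations, and their p-values are given unadjusted. Ranked by r over the 24 arrays as deviations from group means, Cfd came first, Fabp4 171st and Cidec 554th of 14109 named genes, and Lep and Lpl lay below the middle at 9347 and 12760.

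Among named genes that passed the filter, the 10 most like Adipoq by that r were Cfd (0.93), Car3 (0.90), Cyp2e1 (0.80), Xlr4b (0.68), Xlr3b (0.66), Opn3 (0.63), St6galnac4 (0.60), Serpina1a (0.60), Serpina1c (0.59) and Serpina1e (0.59). Only the first 2 passed the adjusted p in the fit above. Without the filter Retn stood at rank 3 of 22901 genes (r = 0.85), ahead of Cyp2e1, and Krtap13, Tmem26 and Tnfsf11 entered the first 10, although Tmem26 was detected on no array. Xlr4b with Xlr3b, and the 3 Serpina1 genes, are near-identical copies whose probes may share targets. Car3 was detected on 20 arrays, from 3.36 to 9.56, and was not detected in M + HFD replicates 2 and 3, F(OVX) + LFD replicate 4 and F(OVX) + HFD replicate 2, on none of which Adipoq was detected.

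**Figure D2:**
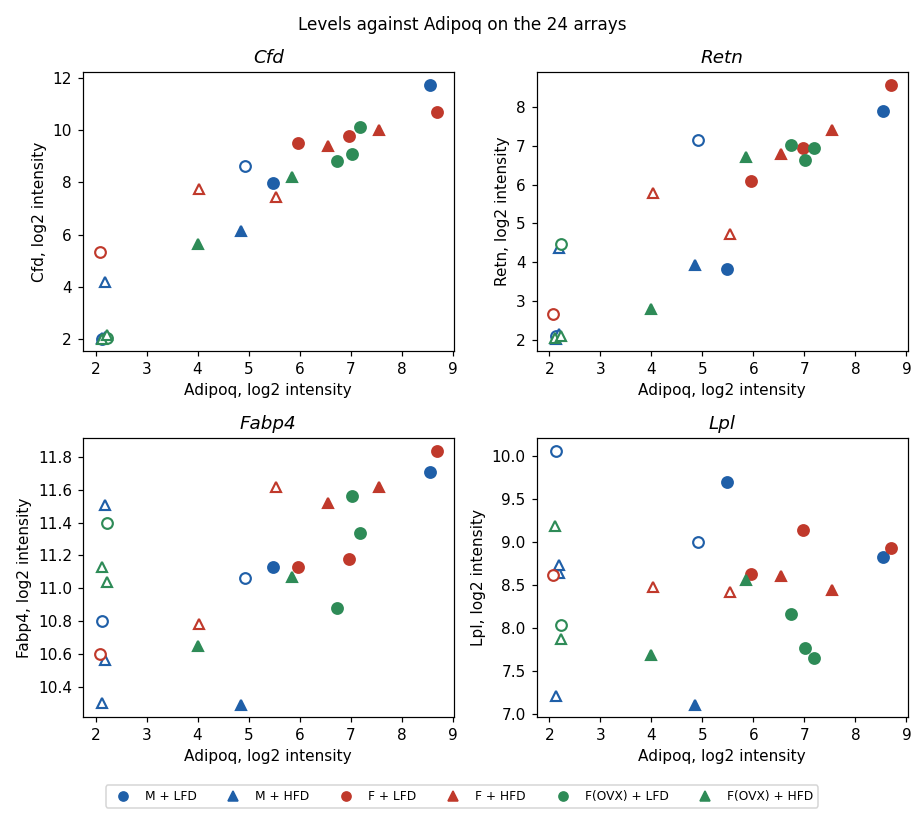
Level of Cfd, Retn, Fabp4 and Lpl (y axes) against that of Adipoq (x axes), all log2 quantile-normalized intensity, on the 24 arrays, with circles for LFD, triangles for HFD, colour for sex and surgery, and filled points where Adipoq was detected. Cfd and Retn climb with Adipoq in every colour (r = 0.94 and 0.93 over the filled points), while Lpl scatters (r = 0.34).

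For markers of the other cells of the colon the fit made no call, and with 0.00894% of all genes passing it, none would be looked for in lists this short. Of 6 endothelial, 4 lymphatic, 10 macrophage, 7 smooth muscle, 7 epithelial, 6 fibroblast, 2 mesothelial, 2 skeletal muscle and 3 distal colon (Hox) genes tested, none passed the fit. The summed level of the distal colon genes had an r of 0.41 with Adipoq within groups over the 24 arrays, that of the mesothelial genes 0.24, of the macrophage genes 0.24 and of the epithelial genes -0.33. The distal colon sum had an SD of 4.64 in M + LFD, which holds the 2 arrays low in Hoxb13, and of 0.26 to 0.71 in the other groups. That r thus leans on M + LFD. The part of any of these cell types in the Adipoq levels was not tested. Of 18 tested among 20 further fat cell genes, Car3 passed, and none of 4 brown fat genes did. Several of those fat cell genes were high in all groups: Pparg, the master regulator of fat cell formation, ran from 11.54 to 13.55 over the 24 arrays and Dgat2, an enzyme of triglyceride synthesis, from 11.71 to 13.65. Pparg and Dgat2, which colon cells also use, had slopes of -0.05 and -0.05 on Adipoq.

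Cidec, Lpl, Lipe and Pnpla2 had a different high point. All 4 were at their highest over the 24 arrays in M + LFD replicate 1 or 2, the arrays low in Hoxb13. Cidec was 10.62 and 11.06 there, against 9.92 at most elsewhere. Lpl was 10.06 and 9.70, against 9.18 at most, and Pnpla2 was 12.72 and 12.91, against 12.08 at most. Adipoq, Retn and Cfd were not detected on M + LFD replicate 1 and were detected on replicate 2, at 5.48, 3.84 and 7.97.

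**Figure D3:**
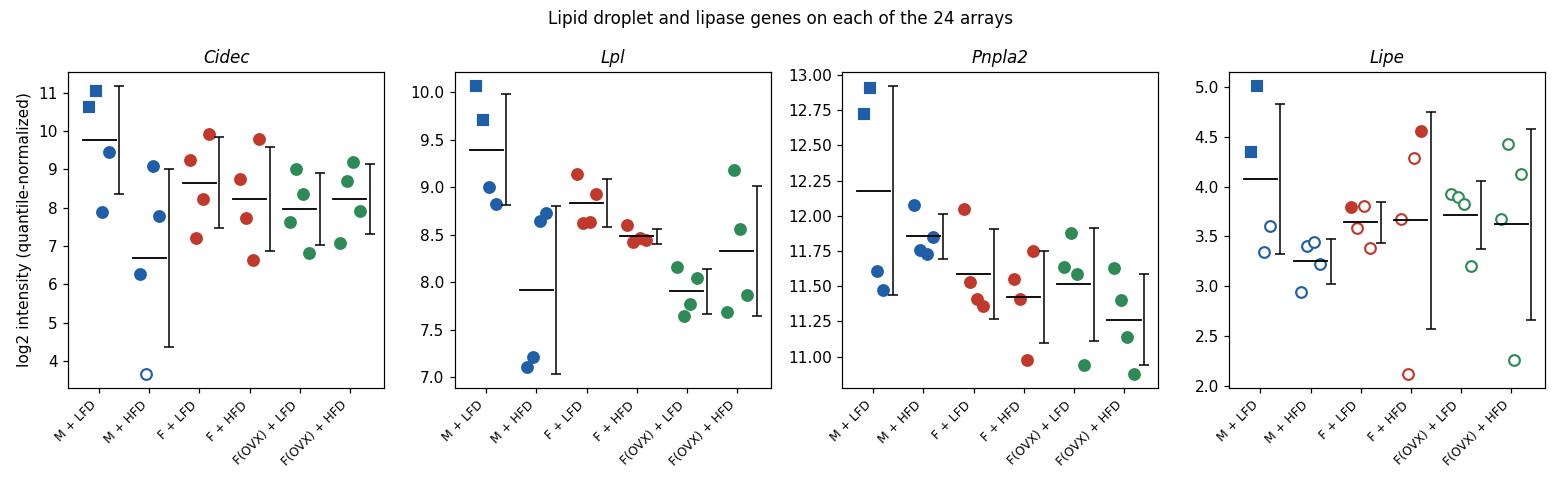
Level of Cidec, Lpl, Pnpla2 and Lipe (y axis, log2 quantile-normalized intensity) on the 4 arrays of each group (x axis), with filled points detected, open points not detected, squares for M + LFD replicates 1 and 2, a line at the mean and a bar of ± SD. The squares are the top 2 of 24 points for Cidec, Lpl and Pnpla2, and Lipe was detected on 4 arrays, of which 2 are squares.

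Among males, 2 of the 5 members that passed the filter on dim probes, Cidec and Lpl, were called lower with HFD. Fabp4, Pnpla2 and Lep were not called. Cidec passed the filter only through M + LFD, in which it was high, so its call supports nothing. A call took a 1.5-fold difference or more together with an unadjusted limma p under 0.05, and 4.24% of the 20516 genes tested met both (870 genes; 1248 had an unadjusted p under 0.05 and none an adjusted one in limma). Lpl read 10.06, 9.70, 9.0 and 8.82 in M + LFD and 7.11, 7.21, 8.64 and 8.73 in M + HFD, so that every LFD array lay above every HFD array, though by little at the boundary. The Lpl difference was -1.47 ± 0.46 (SE) on the log2 scale, or 2.78-fold (limma, unadjusted p = 0.011, adjusted p = 0.80; exact permutation p = 0.029, the smallest that 4 against 4 can give). The second Lpl probe differed by -1.75 and was called too. It was detected on 3 arrays of M + HFD and passed the filter only through M + LFD, in which it was high, so that call adds no support. The third probe was detected on 2 arrays of M + LFD and on none of M + HFD. Lpl was called with each of the 8 arrays left out in turn, but not without both M + LFD replicates 1 and 2, where the difference was -0.99 ± 0.54 (limma, unadjusted p = 0.11).

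Cidec read 10.62, 11.06, 7.90 and 9.46 in M + LFD and 6.27, 3.67, 9.08 and 7.78 in M + HFD, with replicate 2 of M + HFD not detected. The groups overlapped at 7.90 and 9.08. The Cidec difference was -3.06 ± 1.14 on the log2 scale, or 8.36-fold (limma, unadjusted p = 0.027, adjusted p = 0.80; exact permutation p = 0.057). Leaving out M + LFD replicate 1 or 2 or M + HFD replicate 1 or 2 ended that call, as did the methods' t-test, the replicate block and a filter that asks for detection on all 24 arrays, and without both M + LFD arrays the difference was -1.98 ± 1.42 (limma, unadjusted p = 0.21).

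Fabp4 and Pnpla2 were detected on all arrays and were not called in males. Fabp4 was 11.18 ± 0.38 (SD) in M + LFD and 10.66 ± 0.58 in M + HFD, a difference of -0.51 ± 0.31 (SE), which was -0.72 ± 0.40 without M + LFD replicates 1 and 2. Without M + HFD replicate 4 it was -0.79 and Fabp4 was called (limma, unadjusted p = 0.0096). Pnpla2 was 12.18 ± 0.75 and 11.86 ± 0.16, a difference of -0.32 ± 0.34 that became 0.32 ± 0.18 without M + LFD replicates 1 and 2. Lep, near the detection limit at 4.94 to 6.08 over the 24 arrays, differed by 0.28 ± 0.20, and by 0.32 ± 0.26 without the 2 arrays. The median difference of all genes tested was 0.01.

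Retn and Cfd entered the male comparison when the 2 arrays low in Hoxb13 were left out. On all 8 arrays neither passed the filter, because M + LFD replicate 1 did not detect them, and the differences were -2.12 (exact permutation p = 0.31) and -3.98 (exact permutation p = 0.17). With normexp background correction the differences were smaller, at -0.99 for Retn, -2.41 for Cfd and -0.92 for Adipoq. With M + LFD replicates 3 and 4 against the 4 HFD arrays, the Retn difference was -4.39 ± 0.74 and that of Cfd -6.57 ± 1.37. Both were called there, among 4.21% of 20588 genes, while Cidec and Lpl were not. They passed the filter only through the 2 LFD arrays on which they were high, with 1 of 4 HFD arrays detecting them, so these calls follow in part from the choice of arrays and filter and support nothing. Leaving out M + LFD replicate 1 alone also brought calls for Retn (-3.17) and Cfd (-5.83), with the same limit, beside Lpl (-1.25). Car3 differed by -2.55 on all 8 arrays, called, and by -3.93 ± 0.67 without the 2. In both settings Car3 passed the filter only through M + LFD, in which it was high, so its calls support nothing either. Adipoq differed by -2.43 (exact permutation p = 0.11) and did not pass the filter in either setting. Of the marker lists, Cdx2 (1 of 7 epithelial genes, -1.75) and Upk1b (1 of 2 mesothelial genes, -1.26) were called lower and the distal colon gene Hoxd13 higher (4.75) in M + HFD on all 8 arrays. None of the 3 was called without M + LFD replicates 1 and 2 (-1.25, -0.93 and 2.91). Hoxd13 was detected in M + LFD on replicate 4 alone. It passed the filter only through M + HFD, in which it was high, so its call supports nothing. The summed level of the epithelial genes was 17.42 to 18.5 in M + LFD and 17.32 to 17.77 in M + HFD, and that of the distal colon genes 4.44 to 13.72 and 13.4 to 15.02. Their part in the diet differences was not tested.

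In F, none of the 6 members that passed the filter was called, where 1.2% of 22085 genes were (264 genes; 633 had an unadjusted p under 0.05 and none an adjusted one in limma; the methods' t-test called 125). Lpl read 9.14, 8.62, 8.63 and 8.93 in F + LFD and 8.60, 8.42, 8.47 and 8.44 in F + HFD. As in males all LFD arrays lay above all HFD arrays, but the difference was -0.35 ± 0.15, 1.27-fold and under the fold threshold (limma, unadjusted p = 0.046, adjusted p = 0.99; exact permutation p = 0.029). Cfd, detected on all 8 arrays, was 8.81 ± 2.37 (SD) in F + LFD and 8.64 ± 1.24 in F + HFD, a difference of -0.18 ± 1.14 (SE). Cidec differed by -0.43 ± 0.77, Fabp4 by 0.20 ± 0.29, Pnpla2 by -0.17 ± 0.22 and Lep by 0.24 ± 0.22. Adipoq (-0.01) and Retn (0.11) did not pass the filter.

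In F(OVX), none of the 5 members that passed the filter was called, against 2.18% of 19211 genes (418 genes; 704 had an unadjusted p under 0.05 and none an adjusted one in limma; the methods' t-test called 210). Lpl was at 8.16, 7.65, 7.77 and 8.04 in F(OVX) + LFD and 7.69, 9.18, 8.56 and 7.87 in F(OVX) + HFD. The groups overlapped, and the difference was 0.42 ± 0.32. Cidec differed by 0.26 ± 0.55, Fabp4 by -0.32 ± 0.19, Pnpla2 by -0.25 ± 0.24 and Lep by 0.29 ± 0.18.

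Adipoq, Retn and Cfd did not pass the filter in F(OVX), because F(OVX) + LFD replicate 4 detected none of them. Their differences on all 8 arrays were -2.24 for Adipoq (exact permutation p = 0.20), -2.84 for Retn (exact permutation p = 0.086) and -3.00 for Cfd (exact permutation p = 0.20). With normexp background correction they were -0.82, -0.94 and -1.77. In limma without the filter Retn was called (unadjusted p = 0.037). Without F(OVX) + LFD replicate 4 the values were -3.43 ± 0.85 for Adipoq, -3.44 ± 1.06 for Retn and -4.82 ± 1.43 for Cfd, and all 3 were called, among 2.34% of 19408 genes. They passed the filter only through the LFD arrays that were left, on which they were high, so these calls support nothing. Of 7 smooth muscle genes, 3 (Actg2, Cnn1 and Des) were called higher in F(OVX) + HFD, and their summed level was 15.46 to 16.67 with LFD and 16.54 to 17.74 with HFD. Of 10 macrophage genes, 2 (Mrc1 and Fcgr1) were called lower, with summed levels of 13.52 to 14 with LFD and 13.09 to 13.6 with HFD. Acta1 of skeletal muscle was called higher by 0.74, and none of 7 epithelial genes was called. Their part in the diet differences was not tested.

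**Figure D4:**
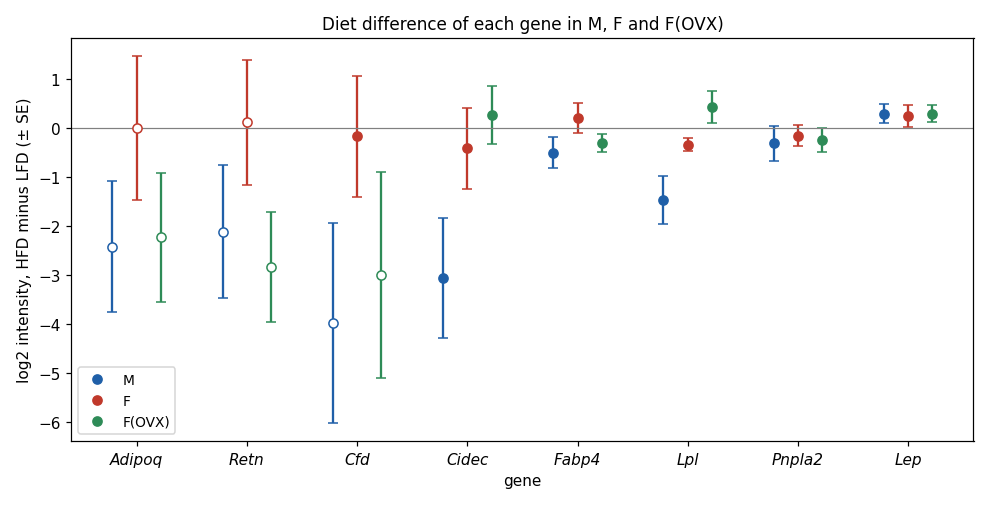
Difference HFD minus LFD (y axis, log2 intensity, bars of ± SE from limma fits without the filter) of 8 member genes (x axis) in M, F and F(OVX), with open points where the gene did not pass the filter on dim probes. Adipoq, Retn and Cfd lie at -2.12 or lower in M and F(OVX) with bars over 1 unit wide on each side, and Lpl lies at -1.47 in M, -0.35 in F and 0.42 in F(OVX).

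Averaged over M, F and F(OVX), the diet effect was called for 1 member, Cfd, among 0.782% of the 22383 genes tested. Cfd passed the filter only through the F groups, in which it was high, so the call supports nothing. The Cfd difference was -2.39 ± 1.1 (limma, unadjusted p = 0.043, adjusted p = 0.98), and 15 of the 24 arrays ended that call when left out singly. Without M + LFD replicates 1 and 2 the value for Cfd was -3.25 ± 1.05, and Retn was called with it at -2.38 ± 0.70. Retn passed the filter in that setting only through M + LFD replicates 3 and 4, on which it was high. Cfd passed it only through those arrays and the F groups. The share of all genes called in that setting is not given, so both calls only describe it. Lpl (-0.47 ± 0.21) and Lep (0.27 ± 0.12) had unadjusted p-values of 0.036 and 0.032 in limma but stayed under the fold threshold. Lep was higher with HFD in all 3 comparisons, by 0.24 to 0.29, with levels that overlapped each time.

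Whether diet acted differently in the groups was tested as an interaction. Between M and F, 2.94% of the genes were called and Lpl was the 1 member among them, with an M minus F value of -1.12 ± 0.51 (limma, unadjusted p = 0.039, adjusted p = 0.98). That call was lost without any 1 of M + LFD replicate 1 or 2, M + HFD replicate 1 or 2, F + LFD replicate 2 or 3, or F + HFD replicate 1 or 3. Between M and F(OVX), 6.13% of the genes were called, with 2 members among them: the M minus F(OVX) value was -1.89 ± 0.51 for Lpl (limma, unadjusted p = 0.0013, adjusted p = 0.57) and -3.32 ± 1.35 for Cidec (limma, unadjusted p = 0.023, adjusted p = 0.59). Lpl kept that call with each of the 24 arrays left out, and Cidec lost it without M + LFD replicate 2, M + HFD replicate 2 or F(OVX) + LFD replicate 4. Without M + LFD replicates 1 and 2, Lpl kept its call against F(OVX) at -1.41 ± 0.54 (limma, unadjusted p = 0.018, adjusted p = 0.89). Cidec did not (-2.24 ± 1.49). The share of all genes called in that setting is not given for the interactions or for the contrasts between groups. Calls there only describe how results moved. Against F, Lpl lost its call in that setting (-0.64 ± 0.54), and Retn (-4.49 ± 1.78) and Cfd (-6.39 ± 2.67) were called. Retn passed the filter there only through M + LFD replicates 3 and 4, on which it was high, so its call supports nothing. Cfd passed it only through those arrays and the F groups, in which it was high, so its call supports nothing either. Between F(OVX) and F no member was called, where 1.47% of the genes were. The comparison of M with F rests on the same M arrays as that of M with F(OVX).

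Between the groups themselves, averaged over the diets, no member was called for F(OVX) against F (2.18% of genes called), with Cfd at -2.72 ± 1.35 (limma, unadjusted p = 0.058) and Lpl at -0.54 ± 0.26 (limma, unadjusted p = 0.047, under the fold threshold). Cfd was called there without M + LFD replicates 1 and 2, at the same -2.72 with an SE of 1.19. It passed the filter in that setting only through F and the M + LFD arrays left, in which it was high, so that call supports nothing. For M against F, Cfd was the 1 member called, among 5.58% of genes, but it passed the filter only through the F groups, in which it was high, so the call supports nothing. Its difference was -3.13 ± 1.35 (limma, unadjusted p = 0.031, adjusted p = 0.22), not called with any of 7 single arrays left out (M + LFD replicate 1, M + HFD replicates 2 and 4, F + LFD and F + HFD replicates 1 and 4) and not called without M + LFD replicates 1 and 2 (-1.83 ± 1.33). Both contrasts are also contrasts between slides.

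Plin1 and Lipe were at or below background on nearly every array. Plin1, whose product coats the droplet of fat cells, was detected only in F + LFD replicate 4, at 4.93, the array with the highest Adipoq of all 24 (8.69). Lipe was detected in M + LFD replicates 1 and 2 (4.35 and 5.01), in F + LFD replicate 1 (3.80) and in F + HFD replicate 4 (4.56). No fold is given for either gene, since the detected groups were not above what the other group's floor allows. Lep was detected on 23 arrays but ranged only 2.20-fold, with no more spread within groups (SD 0.28) than the median gene, and it did not rise on the arrays rich in Adipoq (4.94 to 6.02 on those 13, 5.40 to 6.08 on the other 11).

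**Figure D5:**
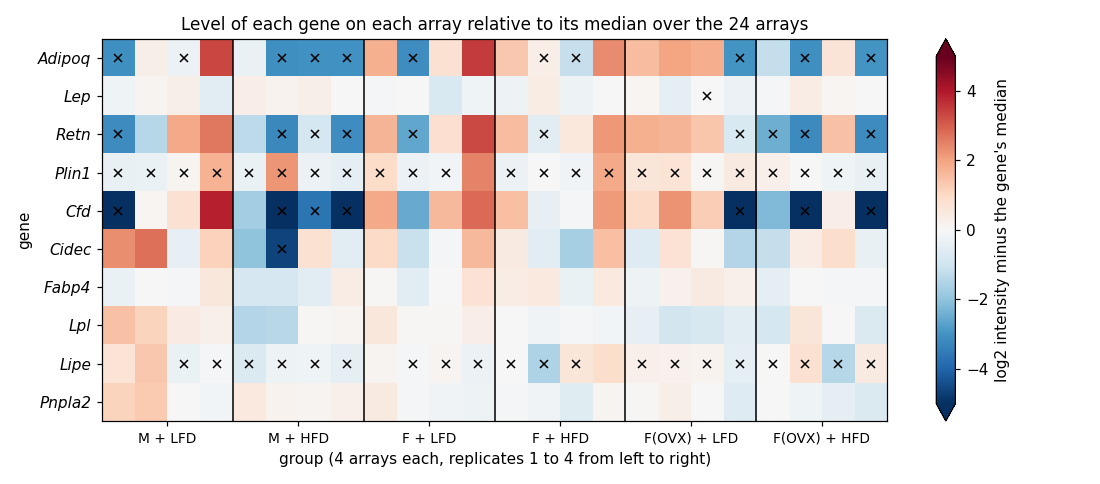
Level of each of the 10 genes (rows) on each of the 24 arrays (columns, by group), as log2 quantile-normalized intensity minus the gene's median over all arrays, with crosses where the gene was not detected and colours cut off at 5 in either direction. Adipoq, Retn and Cfd change colour together from array to array, and Lep, Fabp4 and Pnpla2 stay near 0.

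In each of the related gene lists at most 1 gene was called in a diet comparison, beside 4.24% of all genes in M, 1.2% in F and 2.18% in F(OVX). Of 20 further fat cell genes, 17 were tested in M, 18 in F and 16 in F(OVX), with 1 call each: Car3 lower in M (limma, unadjusted p = 0.016), Adrb3, the adrenergic receptor of fat cells, higher in F by 0.67 (limma, unadjusted p = 0.020), and Aoc3, an amine oxidase of fat and smooth muscle cells, higher in F(OVX) by 0.79 (limma, unadjusted p = 0.020). The medians of the tested genes were -0.21, 0.13 and 0.22. Car3 passed the filter in M only through the LFD arrays, on which it was high, so its call supports nothing. Of 20 further genes of lipases, lipolysis and lipid droplets, 14, 15 and 13 were tested, with medians of -0.24, 0.06 and 0.03. Ces1d, a triglyceride hydrolase, was called lower in M (-1.45; limma, unadjusted p = 0.044), a value that became -0.44 without M + LFD replicates 1 and 2, and Mgll, monoglyceride lipase, was called higher in F(OVX) by 0.86 (limma, unadjusted p = 0.030). None of 5 adipokine receptor genes and none of the brown fat genes tested (4 in M, 4 in F and 2 in F(OVX)) was called in any of the 3 comparisons.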

How the data were processed

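Cy3-labeled RNA of 24 colons was scanned, and the deposited files hold spot intensity from Agilent Feature Extraction 11.0.1.1 per the file headers: the software's processed signal, flags, and median spot and background signals. The genome build of the probe annotation differs from that of the gene table, so gene coordinates were not used. Probes were named by accession (58.3% matched a symbol).

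From the deposited values, controls were removed, spots with an outlier flag became missing values, the log2 spots of a probe were averaged, and arrays were quantile-normalized. The brightest probe stood for a gene. A gene was tested when every array of at least 1 group flagged it well above background. Fits used limma 3.58.1 in R 4.3.3 with Benjamini-Hochberg adjustment: 8 arrays per diet comparison, and 24 arrays in 6 groups for averages, interactions and the fit on Adipoq. Calls used the fold and unadjusted p thresholds of the study's methods. Single values had an exact two-sided permutation test over 70 assignments. Scripts were tested on simulated data. Precision is limited by 4 arrays per group.

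Named genes are the 10 members, the 10 most like Adipoq and list genes called. The members and lists were chosen with earlier results of these data known. Replicate numbers equal slide columns. In F, arrays of the same number deviated together (r of 0.25, 0.39, 0.51 and 0.23), in M (-0.22 to 0.06) and F(OVX) (-0.08 to 0.31) not throughout. Alternatives were 75th percentile scaling, normexp background (offset 50), other filters, probe rules and tests, a replicate block, and leaving out arrays. The settings without M + LFD replicates 1 and 2, and with only the arrays that detected Adipoq, were chosen after seeing the data. So was the order of steps: an earlier run normalized the spots before averaging them and dropped genes with a missing value, and the order was changed, after its results had been seen, to come closer to an earlier processing of these data. Both earlier choices were kept as alternatives.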

Additional observations from a re-analysis of the deposited data

Results flagged for a closer look

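In 60 groups of 4 arrays examined, 1 array lay far from the other 3 in 9 cases, where 1 in 20 would give 3. Levels not detected lie close together near the floor, so most of these flags say only that an array did or did not detect the gene. Adipoq was detected in M + HFD on replicate 1 alone (4.85), and Retn in F(OVX) + HFD on replicate 3 alone (6.70). F(OVX) + LFD replicate 4 was the array of its group that did not detect Adipoq (2.22), Retn (4.48) or Cfd (2.05). Plin1 in M + HFD replicate 2 (4.67) and F + HFD replicate 4 (4.34), and Lipe in F(OVX) + LFD replicate 4 (3.20), stood apart in groups in which no array detected the gene. Fabp4 in F + HFD replicate 3 (10.78) was detected and low.

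Diet differences (HFD minus LFD, log2) that differed between groups in limma's interaction contrasts were those of Lpl for M minus F (-1.12) and M minus F(OVX) (-1.89), and of Cidec for M minus F(OVX) (-3.32). None of the 3 had an adjusted p under 0.05.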

How the results depend on the processing

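Counts of members called depended on single arrays. Most counts below stand without the share of all genes called in the same setting, so they only describe how calls moved. Under 75th percentile scaling the averaged diet effect called 0 members, and Adipoq in F turned to 0.017; with normexp background Retn in F turned to -0.21, and the M and F(OVX) differences of Adipoq, Retn and Cfd shrank by over 1.5 times, to between -0.82 and -2.41. Without a filter, 1 member (Retn) was called in F(OVX), 2 in the average and 2 followed Adipoq. With only probes detected on all 24 arrays, 1 was called in M, 0 in the average, 1 for M minus F(OVX), 0 for M against F and 0 followed Adipoq. With each probe tested on its own, 1 (Lpl) was called for F(OVX) against F. In M, the methods' t-test and the replicate block each called 1 (Lpl); for M minus F the replicate block called Fabp4 in place of Lpl. The members called were the same with and without it in F, F(OVX), the average, M minus F(OVX), F(OVX) minus F and the fit on Adipoq. F(OVX) against F and M against F could not be fitted with the block, since pairs lie within slides. No member (0) followed Plin1 or Cidec as index gene, and 0 followed Adipoq within any 1 slide; 2 did on the 13 arrays that detected Adipoq.

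Without M + LFD replicates 1 and 2, 2 members were called in the average, 2 for M minus F and 1 for M minus F(OVX). In that setting 1 was called for F(OVX) against F and 0 for M against F. There 2 followed Adipoq, and Pnpla2 in M turned to 0.32. Retn, counted in the average, for M minus F and among those that followed Adipoq, passed the filter there only through M + LFD replicates 3 and 4, on which it was high. Cfd, counted in these and for F(OVX) against F, passed it only through those arrays and the F groups, in which it was high. Leaving out each array singly gave 1 to 3 members called in M, 0 to 3 in F(OVX), 0 to 4 in the average, 0 to 3 for M minus F, 1 to 2 for M minus F(OVX), 0 to 2 for F(OVX) against F, 0 to 3 for M against F, and 1 to 2 following Adipoq. F + LFD replicate 2 and F(OVX) + LFD replicate 4 each gave the 4 in the average. In F the single differences then ran from -1.29 to 0.92 for Adipoq, -1.03 to 0.94 for Retn, -1.33 to 0.45 for Cfd, -0.95 to 0.11 for Cidec and -0.0010 to 0.41 for Fabp4, and Cidec in F(OVX) from -0.12 to 0.64. The cause of these changes was not tested, apart from the filters, which test fewer or more genes. No member was called in F, or for F(OVX) minus F, under any setting run. With spots normalized before averaging, with genes that miss a value dropped, or with both, as in the earlier run, the members called were the same in all 10 results; of all genes, the earlier order called 882 in place of 870 in M and 421 in place of 418 in F(OVX), where Tagln made 4 smooth muscle genes called in place of 3.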
